A study of Mus musculus with 24 samples.

Results

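Expression of 7 genes of fast inhibitory transmission was followed across cerebellum, brainstem and liver: the glycine receptor subunits Glra1 and Glrb, the neuronal glycine transporter Slc6a5, and the GABA-A receptor subunits Gabra2, Gabra3, Gabrb2 and Gabrd. Every probe set that the platform's annotation assigned to one of these 7 genes alone was taken, which gave 15 of the 45037 probe sets tested (17097 genes named). Gabrb2 had 5 probe sets, Gabra2, Gabra3, Gabrd and Slc6a5 had 2 each, and Glra1 and Glrb had 1 each. A gene was represented by the probe set with the highest mean over the 16 cerebellum and brainstem arrays. Of the 15 probe sets, 11 passed a filter on dim signals, and the other 4 (1 each of Gabra3, Gabrb2, Gabrd and Slc6a5) did not exceed 4.41 in any array.

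The mice were 18 months old, an age given in the paper and not in the labels. Animals labelled Atxn2 Knock-In, called CAG42 here, were homozygous for an allele with 42 CAG repeats in the endogenous Atxn2 gene, where the mouse sequence carries a very short repeat. The allele was driven by the gene's own promoter, the first exon was exchanged in embryonic stem cells, the neomycin cassette was removed with Flp recombinase, and the line was crossed into C57BL/6 for at least 8 generations. The control animals, labelled wild type and called WT here, were littermates. Each of the 6 groups of tissue and genotype held 4 arrays, 24 in all, and levels were RMA values on the log2 scale. No sex is stated for the animals. All p-values rest on these arrays alone, and those of the main limma fit use a spread pooled over all 24, liver included.

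GABA-A and glycine receptors are chloride channels built of several subunits, and their opening by GABA or glycine inhibits the neuron. The subunits decide where the channel sits and how it responds: alpha and beta subunits form the GABA binding site, while delta takes the place of a gamma subunit in channels outside the synapse that carry a steady, tonic current. In the cerebellum, delta pairs with the alpha6 subunit in granule cells. Fast glycine inhibition is the hallmark of brainstem and spinal cord, where the adult receptor joins the alpha1 subunit (Glra1) with the beta subunit (Glrb) that anchors it to gephyrin, and where glycinergic terminals take glycine back up through the transporter encoded by Slc6a5.

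RefSeq promoter windows of assembly GRCm38.p6, each from 250 bases before to 50 bases after a transcript start, were matched by gene symbol for 5 of the 7 genes (Gabra2, Gabra3, Gabrb2, Glrb and Slc6a5). They are shown for the 2 genes with windows whose brainstem levels stood farthest above cerebellum, Slc6a5 and Gabra3, and for Gabrb2, whose levels were high in both regions; for each the most upstream window is given. Capitals mark the TATA motif (TATAAA) or the CAAT motif (CCAAT) or the GC box (GGGCGG), each on either strand. The Slc6a5 window lies at chr7:49910049-49910348 on the plus strand, that of Gabra3 at chrX:72656870-72657169 on the minus strand and that of Gabrb2 at chr11:42420190-42420489 on the plus strand.
Slc6a5: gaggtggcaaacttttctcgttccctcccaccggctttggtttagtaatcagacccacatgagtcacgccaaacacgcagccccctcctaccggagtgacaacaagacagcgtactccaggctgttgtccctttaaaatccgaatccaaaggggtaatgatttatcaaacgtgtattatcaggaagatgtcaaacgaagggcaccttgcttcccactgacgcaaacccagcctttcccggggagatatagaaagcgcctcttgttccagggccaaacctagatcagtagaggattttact
Gabra3: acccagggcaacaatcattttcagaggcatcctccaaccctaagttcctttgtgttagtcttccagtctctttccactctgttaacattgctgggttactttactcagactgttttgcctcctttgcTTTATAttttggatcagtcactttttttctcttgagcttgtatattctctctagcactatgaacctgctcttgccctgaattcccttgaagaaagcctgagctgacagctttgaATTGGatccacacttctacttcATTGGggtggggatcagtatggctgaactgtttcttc
Gabrb2: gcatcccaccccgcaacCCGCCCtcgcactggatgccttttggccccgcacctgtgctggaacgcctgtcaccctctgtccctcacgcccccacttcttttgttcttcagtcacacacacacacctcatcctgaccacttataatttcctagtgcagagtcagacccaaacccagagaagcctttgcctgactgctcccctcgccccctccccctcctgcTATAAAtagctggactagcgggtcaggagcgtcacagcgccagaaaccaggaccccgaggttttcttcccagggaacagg
The Gabrb2 window held TATAAA starting 30 bases before the transcript start, together with 1 GGGCGG. In the Gabra3 window TATAAA was met once and CCAAT was met in 2 places, with no CG dinucleotide, against 12 CG dinucleotides for Slc6a5 and 11 for Gabrb2. None of these 3 motifs was in the Slc6a5 window. Among all 32851 promoter windows of this length, 13.6% held the TATA motif, 37.4% the CAAT motif and 35.7% the GC box on either strand. By contrast, the windows of Glrb and Gabra2 were rich in CG, with 30 and 25 dinucleotides and 2 copies of GGGCGG each. The genome build behind the array values is not stated, and the windows are a description of the genes, not of the probe sets.

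The arrays matched their tissue labels. The mean of 5 granule cell markers was 11.5 to 11.7 in cerebellum, 7.81 to 8.73 in brainstem and 3.01 to 3.33 in liver. That of 5 Purkinje cell markers was 10.5 to 10.9 in cerebellum and 7.06 to 7.84 in brainstem. The means of both lists were thus above liver in brainstem arrays. The Purkinje marker Car8 was not, with means of 4.23 in WT brainstem and 5.48 in WT liver. Among 8 markers of brainstem neurons and hindbrain position, 7 were lower in WT cerebellum, and their mean was 2.96 to 3.38 in cerebellum against 5.35 to 6.11 in brainstem. Of these markers Slc5a7, the choline transporter, was at liver level in both regions. Phox2a was below its liver level in both, with means of 3.27 in WT brainstem and 3.91 in WT liver. The 7 oligodendrocyte markers were all lower in cerebellum, with means of 8.60 to 8.88 against 9.89 to 10.3, while 6 general neuron markers had means of 10.4 to 10.5 and 10.6 to 10.7. In whole tissue, a smaller share of the cells that express a gene and less RNA per cell cannot be told apart, and the part of these cell type differences in the results below was not tested.

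Glra1, the alpha1 subunit of the adult glycine receptor, was clearly measured in brainstem and not above background in cerebellum. In WT brainstem its levels were 7.80, 7.56, 7.51 and 7.27, against 3.30, 3.14, 3.76 and 3.61 in WT cerebellum. CAG42 brainstem gave 7.75, 7.57, 7.68 and 7.51, and CAG42 cerebellum gave 3.25, 3.55, 3.03 and 3.23. Brainstem and cerebellum were far apart in every mouse, and the cerebellar levels of 3.03 to 3.76 were no higher than those in liver (3.74 to 4.18), so that cerebellar Glra1 could not be told from background. Its regional difference is therefore a bound: with the higher of the liver mean (3.90) and the cerebellar mean taken as the floor, Glra1 was at least 12.4-fold higher in brainstem in WT and at least 13.2-fold higher in CAG42 mice. The measured difference of cerebellum minus brainstem was -4.08 in WT (SE 0.13, limma adjusted p = 3.1e-17) and -4.36 in CAG42 mice (SE 0.13, adjusted p = 1.1e-17), and its size rests on that floor.

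Glrb, the beta subunit, was abundant in both regions and differed far less than its alpha1 partner. Its levels were 9.67, 9.35, 9.30 and 9.35 in WT brainstem and 8.79, 8.79, 8.61 and 8.82 in WT cerebellum. For CAG42 mice they were 9.35, 9.41, 9.53 and 9.56 in brainstem and 8.70, 8.45, 8.50 and 8.50 in cerebellum. All brainstem values lay above all cerebellar values. The difference was -0.66 in WT (SE 0.19, 95% interval -1.06 to -0.27, adjusted p = 0.0058) and -0.93 in CAG42 mice (95% interval -1.32 to -0.53, adjusted p = 0.00029). A probe set's level depends on its own probes, so the levels of Glra1 and Glrb were not compared with each other.

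Slc6a5, whose transporter loads glycinergic terminals, followed Glra1 in direction but remained measurable in cerebellum. WT brainstem had levels of 9.29, 9.06, 8.82 and 8.83, and WT cerebellum had 6.48, 6.46, 6.57 and 6.47. In CAG42 mice the values were 9.09, 9.02, 9.14 and 8.95 in brainstem and 6.39, 6.64, 6.62 and 6.35 in cerebellum. Cerebellar levels stood well above liver (2.55 to 2.91) and below every brainstem level. The difference was -2.51 in WT (SE 0.10, 5.68-fold, adjusted p = 1.9e-15) and -2.55 in CAG42 mice. Its second probe set was dim, at 2.77 to 3.27 in all 16 brain arrays, and was called in neither genotype.

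The alpha subunits Gabra2 and Gabra3 were both higher in brainstem, Gabra3 by much more. Gabra3 had levels of 9.01, 8.93, 8.91 and 8.69 in WT brainstem and 6.13, 6.0, 6.62 and 6.12 in WT cerebellum. The CAG42 values were 8.93, 8.82, 8.86 and 8.83 in brainstem and 5.98, 6.09, 6.17 and 6.05 in cerebellum. The regions did not overlap, and the difference of -2.66 in WT (SE 0.13, 6.34-fold, adjusted p = 2.1e-14) was close to the -2.79 of CAG42 mice (SE 0.13). The second, dim Gabra3 probe set had the same direction, with -0.97 in WT and -0.67 in CAG42 mice, although its levels of 2.72 to 3.88 did not rise above those in liver (3.74 to 4.31).

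Gabra2, the alpha2 subunit, gave 7.12, 7.21, 7.03 and 7.53 in WT brainstem against 6.62, 6.40, 6.90 and 6.63 in WT cerebellum. CAG42 mice had 7.48, 7.29, 7.50 and 7.49 in brainstem and 7.08, 6.50, 7.03 and 6.43 in cerebellum. Within each genotype the lowest brainstem value lay above the highest cerebellar value, by a small margin. The differences were -0.58 in WT (SE 0.14, adjusted p = 0.0011) and -0.68 in CAG42 mice. A second probe set with larger spread gave -0.91 in WT (SE 0.23, with overlap between the regions) and -0.97 in CAG42 mice, both called.

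Gabrb2, a beta subunit of synaptic receptors, was the flattest of the 7 genes between the regions, and its probe sets did not give the same answer. The brightest one read 11.06, 11.14, 11.08 and 11.18 in WT cerebellum and 10.55, 10.64, 10.80 and 10.76 in WT brainstem. In CAG42 mice it read 10.99, 10.90, 11.04 and 11.07 in cerebellum and 10.51, 10.56, 10.54 and 10.62 in brainstem. Cerebellum was higher without overlap, by 0.43 in WT (SE 0.09, 1.35-fold, adjusted p = 0.00026) and by 0.44 in CAG42 mice. A probe set marked x, which can bind related transcripts, gave 0.38 and 0.35 in the respective genotypes. However, 2 other bright probe sets showed 0.03 and -0.03 in WT and 0.00 and -0.12 in CAG42 mice, none of them called. Their 95% intervals in WT, -0.15 to 0.21 and -0.24 to 0.17, did not reach the 0.43 of the brightest probe set. The size of the difference thus depended on the probe set, and which transcripts each one detects was not tested. The dim probe set was called in WT (0.71) and not in CAG42 mice (0.27, adjusted p = 0.092).

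Gabrd, the delta subunit of tonic GABA-A currents, was the counterpart of Glra1, high in cerebellum and low in brainstem. WT cerebellum gave levels of 9.53, 9.26, 9.30 and 9.38 and CAG42 cerebellum gave 9.51, 9.19, 9.47 and 9.44. The difference to brainstem was 3.92 in WT (SE 0.25, 15.2-fold, adjusted p = 3.6e-12) and 3.85 in CAG42 mice. Its dim second probe set, at 2.92 to 3.77 in brain and 3.25 to 3.63 in liver, was higher in cerebellum by 0.53 and 0.44. The granule cell partner Gabra6 differed by a like amount, 3.88 in WT and 3.65 in CAG42 mice.

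**Figure D1:**
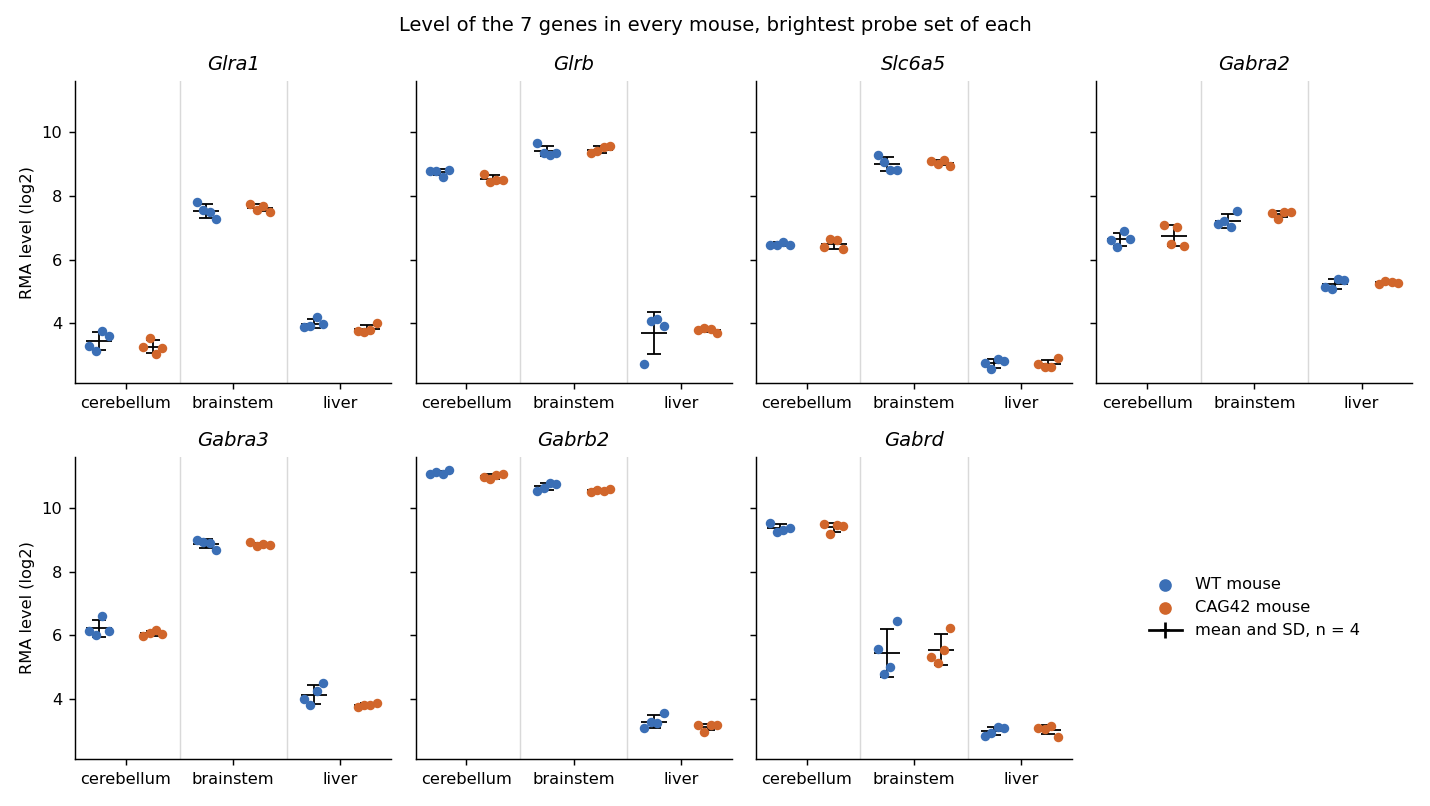
RMA level on the log2 scale of the brightest probe set of each gene in every mouse, by tissue, with WT in blue, CAG42 in orange, and black bars for the mean and SD of 4 mice. Glra1 in cerebellum lies at or below its liver level, Gabrd has the reverse pattern, and WT and CAG42 points overlap in most groups; heights are not comparable between genes.

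In brainstem, Gabrd varied more between mice than any other gene of the 7. Its levels were 5.57, 4.77, 5.0 and 6.44 in WT (SD 0.74) and 5.31, 5.13, 5.53 and 6.25 in CAG42 mice (SD 0.49), against 2.82 to 3.15 in liver. The mouse numbered 4 was the highest in both genotypes. The means of the 5 granule cell markers were 8.43, 8.01, 7.81 and 8.40 in WT brainstem and 8.46, 7.94, 8.73 and 7.84 in CAG42 brainstem. A list of 8 genes known for strong expression in thalamus, the region in front of the midbrain where delta pairs with the alpha4 subunit, was drawn up after these values were seen. Its mean was 6.39, 6.55, 6.96 and 7.54 in WT brainstem and 6.65, 6.57, 6.28 and 7.65 in CAG42 brainstem. Mouse 4 was the highest in both genotypes for 6 of these 8 genes (Prkcd, Tcf7l2, Rora, Plekhg1, Synpo2 and Tnnt1), the exceptions being Lef1 and Gbx2 in WT. As the list was drawn up afterwards, this count is a description only, and the share over all probe sets was not counted. Prkcd, a protein kinase C, had 9.24 in WT mouse 4 against 7.36 to 8.03 in the others, and 9.52 in CAG42 mouse 4 against 7.09 to 7.48. The alpha4 subunit gene Gabra4, also chosen after its values were seen, showed 8.21 against 6.98 to 7.72 in WT and 8.45 against 7.25 to 7.30 in CAG42 mice. The mean of the 8 hindbrain markers in the same WT arrays was 6.05, 6.11, 5.42 and 5.35, and in CAG42 arrays 5.88, 5.65, 6.0 and 5.72. The labels do not say how brainstem was cut out, and the part of such differences in the Gabrd levels was not tested. Leaving out both brainstem arrays numbered 4, which held the highest Gabrd levels, could only raise the difference between the regions. Gabrd then differed by 4.25 in WT (SE 0.15) and by 4.08 in CAG42 mice, and no conclusion is drawn from that rise.

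**Figure D2:**
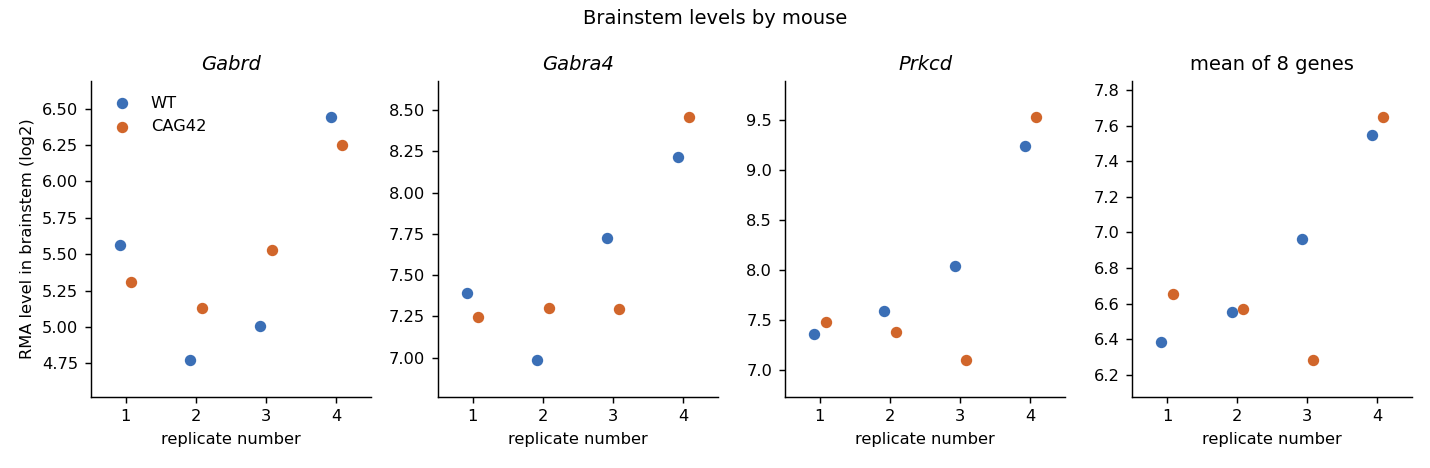
Brainstem levels (log2, vertical axes scaled to each panel and not starting at 0) of Gabrd, Gabra4, Prkcd and the mean of 8 genes known from thalamus, for each replicate number, with WT in blue and CAG42 in orange. Number 4 is the highest mouse of both genotypes in every panel, with Gabrd at 6.44 and 6.25. The panels were chosen after the values were seen. Lef1 and Gbx2, for which number 4 was not the highest in WT, have no panel of their own.

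Over the 15 probe sets, 5 were higher and 7 lower in WT cerebellum than in WT brainstem, and 3 were not called, with a median of -0.05. Calls were common among all probe sets: 47% passed in WT, 18.8% as higher and 28.2% as lower in cerebellum, around a median of -0.07. In CAG42 mice 4 of the 15 were higher and 7 lower, beside 46.7% of all probe sets called, 18.7% higher and 27.9% lower. The regions did not overlap for 11 of the 15 in WT and 12 in CAG42 mice, against 48.9% and 50.8% of all probe sets. For the brightest probe set of each gene the order of the WT differences ran from Gabra3 (-2.66) and Slc6a5 (-2.51) to Glrb (-0.66), Gabra2 (-0.58), Gabrb2 (0.43) and Gabrd (3.92). For Glra1 only a bound is known, at least 3.63 lower in cerebellum with the floor set as above, which places it before Gabra3. The 95% intervals of Gabra3 (-2.92 to -2.40) and Slc6a5 (-2.72 to -2.29) overlapped, as did those of Glrb and Gabra2. In a two-sided exact permutation test that ignores any pairing, all 7 brightest probe sets reached p = 0.0286 in either genotype, the smallest that 4 against 4 arrays allow. Since arrays of one number moved together, an exact sign-flip test over the 4 pairs was also run, which gave p = 0.125 for each, the smallest that 4 pairs allow, and so could not reach 0.05. Cerebellum and brainstem of the same genotype and number differed in the direction of the mean in 4 of 4 pairs for each of these 7 probe sets and in both genotypes.

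**Figure D3:**
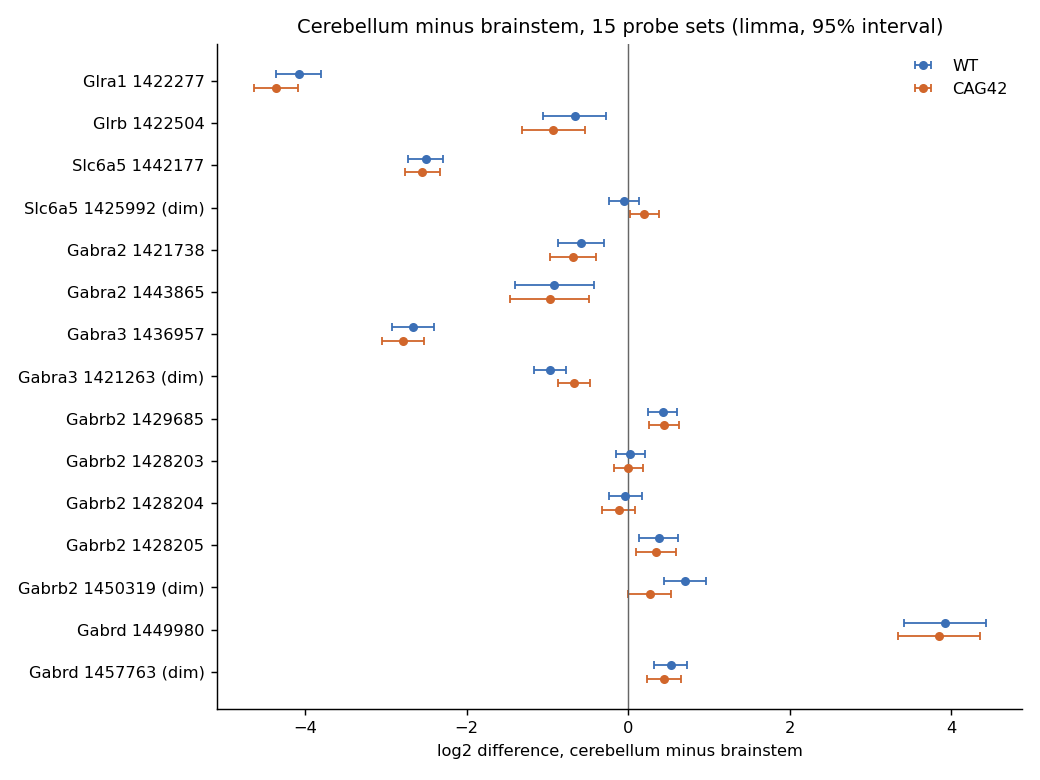
Cerebellum minus brainstem on the log2 scale for the 15 probe sets, with WT in blue and CAG42 in orange; points are limma estimates and bars their 95% intervals. Glra1 (whose size rests on a cerebellar level at background), Gabra3 and Slc6a5 lie far to the left and Gabrd far to the right in both genotypes, and the Gabrb2 probe sets scatter between -0.12 and 0.71.

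The CAG42 allele was then compared with WT within each region. None of the 15 probe sets was called by limma in cerebellum or in brainstem, and in both 0 of the 15 had an unadjusted p under 0.05, against 3.59% and 4.17% of all probe sets. In a fit without liver arrays, 1 of the 15 in each region had one, beside 2914 of all 45037 probe sets in cerebellum and 3273 in brainstem. With each tissue fitted alone 2 in cerebellum and 1 in brainstem did, and the array-wide count of that fit is not given here. None of these was called. Calls were rare in the whole array, with 0.0444% of all probe sets in cerebellum and 0.0155% in brainstem. The differences in cerebellum ran from -0.22 to 0.34 and in brainstem from -0.17 to 0.40, and both largest values belonged to the second Gabra2 probe set (95% intervals -0.14 to 0.83 and -0.09 to 0.89). Among the brightest probe sets, the interval in cerebellum was -0.46 to 0.09 for Glra1, -0.61 to 0.18 for Glrb and -0.21 to 0.22 for Slc6a5. The Glrb interval was widened by the spread of its liver arrays (2.72 to 4.12 in WT): without liver its SE fell from 0.19 to 0.089 and its interval was -0.40 to -0.03, and with cerebellum fitted alone it was -0.40 to -0.04. Its adjusted p in limma was 0.728 and 0.838 in these fits. The 4 CAG42 values of 8.45 to 8.70 overlapped the WT values of 8.61 to 8.82. In brainstem, the intervals were -0.18 to 0.37 for Glra1, -0.35 to 0.44 for Glrb and -0.16 to 0.26 for Slc6a5. Over all 15 probe sets and both regions, no interval of the fit with all tissues reached below -0.61, a limit set by Glrb, or above 0.89.

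The GABA-A subunits gave the same picture. In cerebellum the interval was -0.17 to 0.40 for Gabra2, -0.41 to 0.11 for Gabra3, -0.30 to 0.06 for Gabrb2 and -0.48 to 0.54 for Gabrd, which narrowed to -0.17 to 0.24 with cerebellum fitted alone. In brainstem it was -0.07 to 0.50 for Gabra2, -0.29 to 0.23 for Gabra3, -0.31 to 0.05 for Gabrb2 and -0.40 to 0.62 for Gabrd. With brainstem fitted alone the Gabrd interval widened to -0.68 to 0.90, beyond the limits given above for the fit with all tissues. All 5 Gabrb2 probe sets had a negative difference in cerebellum, from -0.12 to -0.20, none of them called, and as probes for one gene on the same arrays they are not separate observations. For 2 of them the 4 CAG42 values lay below the 4 WT values: 10.12, 9.99, 10.17 and 10.12 against 10.21, 10.22, 10.25 and 10.24 for the first, and 9.70, 9.61, 9.68 and 9.68 against 9.71, 9.91, 9.89 and 9.72 for the second. The dim Gabra3 probe set was the third of the 15 without overlap in cerebellum, being higher in CAG42 mice. Groups without overlap made up 3.94% of all probe sets in cerebellum and 3.7% in brainstem, where none of the 15 was among them.

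**Figure D4:**
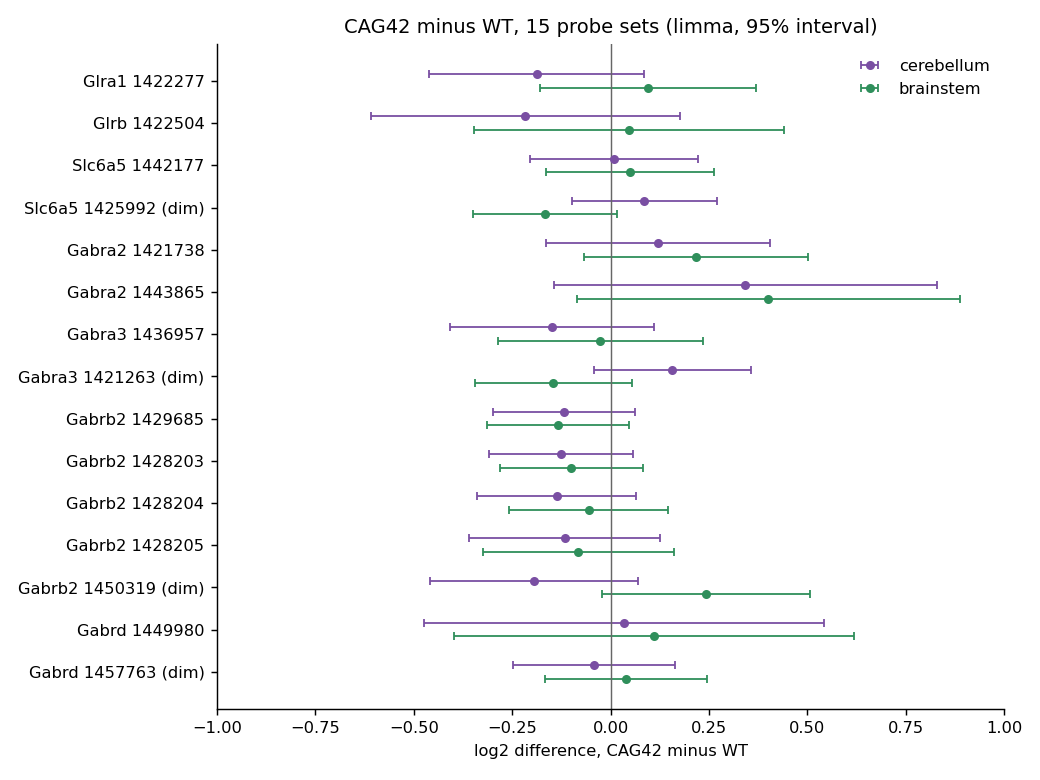
CAG42 minus WT on the log2 scale for the 15 probe sets in cerebellum (purple) and brainstem (green); points are limma estimates and bars their 95% intervals. In this fit with all tissues every interval includes 0, and the widest belong to Gabrd and the second Gabra2 probe set.

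Whether the allele acted differently in the 2 regions was tested in the same model. None of the 15 probe sets was called, beside 0.00222% of all probe sets. An unadjusted p under 0.05, met by 1.68% of all probe sets, was found for 2 dim ones, a Gabra3 probe set with a difference of 0.30 and a Gabrb2 probe set with -0.44, and neither was called. Markers of 3 other cell types had higher group means in CAG42 arrays. In brainstem the mean of the 7 oligodendrocyte markers was 9.89 to 10.1 in WT and 10.1 to 10.3 in CAG42 mice (means 9.98 and 10.2), with barely any overlap, and all 7 differences were positive with a median of 0.22, while in cerebellum their median was -0.03. The mean of 6 choroid plexus markers was 5.13 to 7.18 in WT cerebellum and 6.71 to 7.33 in CAG42 cerebellum, and that of 3 erythrocyte markers was 9.27 to 10.3 and 9.85 to 10.4 in cerebellum and 9.58 to 10.8 and 10.2 to 11.1 in brainstem, with 0 of the genes of the 3 lists called by limma and their part in the genotype values not tested. Granule cell markers averaged 11.7 in WT and 11.6 in CAG42 cerebellum.

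Other genes of the inhibitory synapse placed these 7 in context. Of 43 listed genes 35 were measured and the rest were not analysed here. In WT, 3 of the 35 were higher and 19 lower in cerebellum, with a median of -0.38, beside 18.8% higher, 28.2% lower and a median of -0.07 over all probe sets. In CAG42 mice 2 were higher and 20 lower, beside 18.7% and 27.9%. The 35 are genes by their brightest probe set, while these shares are of all probe sets, dim and unnamed ones included. The 35 were not recounted under other scalings. None was called between the genotypes in either region, with differences between -0.30 and 0.22.

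Among 11 other GABA-A subunits, 1 was higher and 5 were lower in WT cerebellum. Gabra5, the alpha5 subunit of extrasynaptic receptors, had means of 3.72 in WT cerebellum, 8.12 in WT brainstem and 4.51 in WT liver. With the floor set as for Glra1 it was at least 12.7-fold higher in WT brainstem (measured difference -4.40, adjusted p = 2.1e-17). Gabra6, the granule cell subunit, was the one that was higher (3.88, adjusted p = 1.3e-12). The gamma subunit Gabrg1 (-1.68) was lower as well. Gabrg3, another gamma subunit, had a mean of 2.78 in WT cerebellum, not above liver (3.32), and was at least 2.07-fold higher in WT brainstem (4.37; measured difference -1.59). Of the glycine genes, Glra2, the alpha2 subunit typical of the immature receptor, had a mean of 6.82 in WT brainstem and 3.39 in WT cerebellum, the latter close to liver (3.22), so that its measured difference of -3.43 can be read only as a lower bound in size. Slc6a9, the mainly glial glycine transporter, showed -0.66, while Glra3 (-0.10) and Glra4 (0.08) were not called and were dim.

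Genes of GABA synthesis and handling were compared next. Of 6 measured, 5 were lower in WT cerebellum: Gad2 (-1.05), which makes GABA, Abat (-0.77), which breaks it down, Slc6a13 (-0.68), a GABA transporter, Aldh5a1 (-0.65), the next enzyme of breakdown, and Slc32a1 (-0.40), the vesicular carrier shared by GABA and glycine. Slc6a13 was not called in CAG42 mice (-0.16). Gad1, the other GABA-synthesizing enzyme, showed 0.08 and was not called. Of 7 genes of the inhibitory postsynapse and receptor assembly, 5 were lower, among them Shisa7 (-1.07, with cerebellum not above liver and at least 1.61-fold higher in brainstem), Gphn (-0.69), which encodes the gephyrin scaffold, Clptm1 (-0.60) and Gabarap (-0.42), and Insyn1 was higher (0.32), though at means of 3.26 and 2.94 it lay below its liver level (5.09). Both cation-chloride cotransporters were slightly lower in cerebellum, Slc12a2 (-0.36) and Slc12a5 (-0.29), and Clcn2 showed 0.12 without a call. Of 4 genes of the GABA-B receptor Kctd12, an auxiliary subunit, was higher (1.21), while Kctd8 (0.24), Gabbr1 (-0.15) and Kctd16 (-0.15) were not called.

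**Figure D5:**
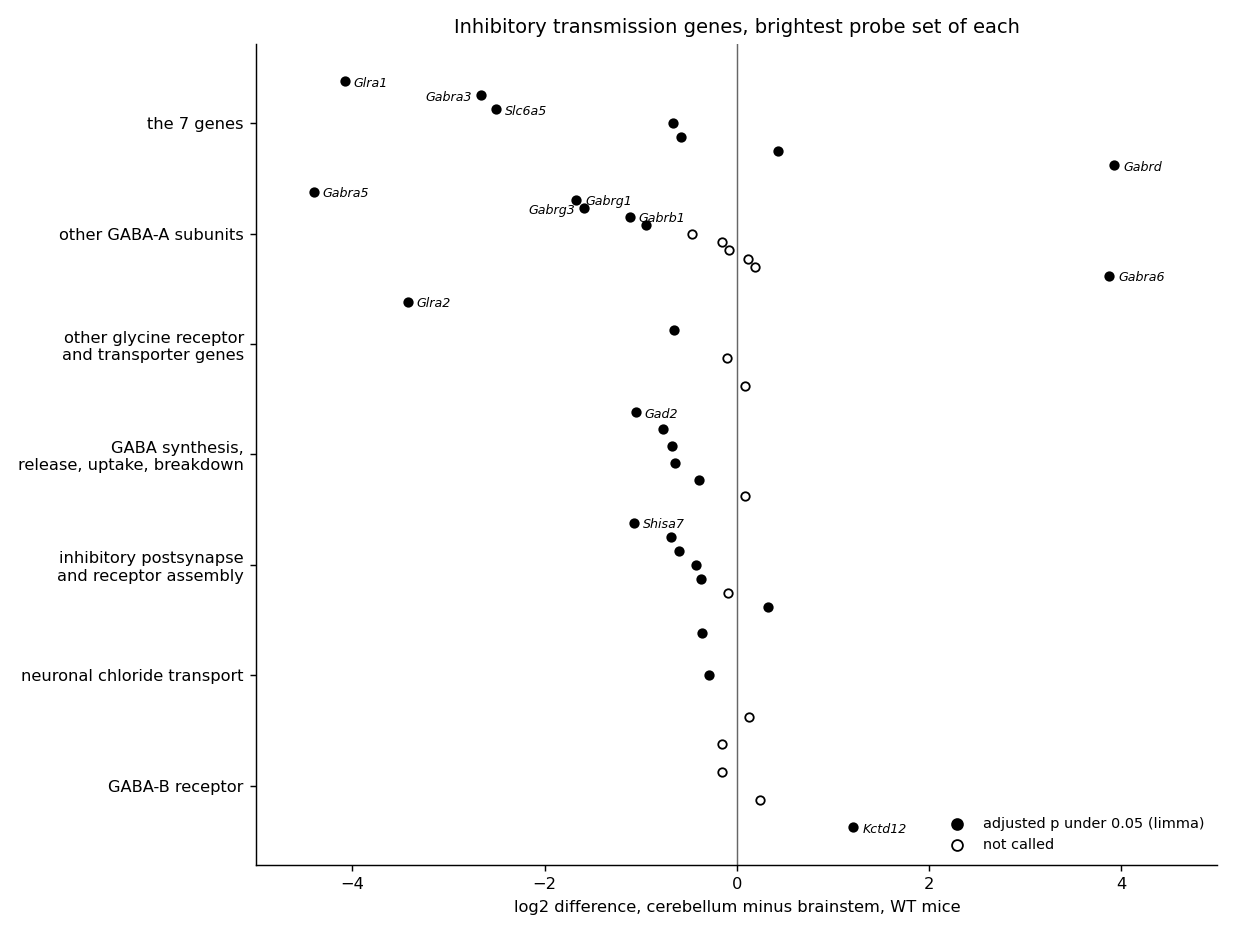
Cerebellum minus brainstem in WT mice (log2, horizontal axis) for the brightest probe set of the 7 genes and of 35 other inhibitory genes, grouped by role; filled points passed limma at an adjusted p under 0.05. Glra1, Gabra5, Gabrg3, Gabrr2, Glra2 and Shisa7 have a cerebellar level near or below liver, so the sizes at their points rest on that floor. Insyn1 lies below its liver level in both regions. Most filled points lie left of 0, and Gabrd and Gabra6 stand alone at the right.

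Finally, the genes most like each of the 7 over the 16 brain arrays were sought by Pearson correlation of log2 levels. The arrays fall into 2 clusters, the regions, so that r mostly carries the regional difference and is given as a description. Glra1 was closest to Pip4k2a (r = 0.998), Shroom2 (0.998) and Gabra5 (0.998). For Slc6a5 these were Htr1a (0.997), a serotonin receptor, Arhgef4 (0.997) and Pip4k2a (0.996), and for Gabra3 they were Ddc (0.997), an enzyme of monoamine synthesis, Arhgap24 (0.997) and Pip4k2a (0.997). Pip4k2a thus appeared for 3 of the 7 genes. Gabrd was closest to Kcnmb4 (0.995), a potassium channel subunit, Slc1a6 (0.993), the Purkinje cell glutamate transporter, and Rnf112 (0.992). Glrb was closest to Tmem255a (0.989), Cd164 (0.989) and Qk (0.987), Gabrb2 to Ino80dos (0.967), 4831440E17Rik (0.964) and Nrxn2 (0.963), and Gabra2 to Hdac6 (0.915), Anxa7 (0.914) and 1700084J12Rik (0.911).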

How the data were processed

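The authors hybridized tissue RNA to Affymetrix arrays and deposited log2 values made with RMA; per the labels' processing notes R 2.7.0 was used. Labels and methods differ on the kit and the amount of RNA, and the methods name the MOE430 2.0 array. Neither detection calls nor scan dates entered the work, so no batch could be tested, and the number of arrays limits the precision. Of 45141 probe sets 104 controls were left out. Names came from the platform annotation (28898 probe sets with 1 gene, 551 with several, 15588 with none). All 24 arrays entered one limma fit (limma 3.58.1, R 4.3.3) with a mean for each of the 6 groups, empirical Bayes moderation, Benjamini-Hochberg adjustment over all probe sets within a comparison and a threshold of 0.05. Single genes were also compared by an exact permutation test. The procedure was tested on simulated data with independent noise and few changed probe sets. The real arrays differ in both respects, so no result here rests on that test. Figures used matplotlib 3.10.9 in Python 3.11.15.

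The genes and lists were chosen with earlier results of these data known. Named were all probe sets of the 7 genes, up to 4 genes per inhibitory list with the largest WT regional difference, and the 3 genes most alike; Gabra4, Gad1, Slc32a1, Insyn1 and the thalamus genes were named after their values were seen. Cerebellum and brainstem arrays that shared genotype and number moved together (8 pairs, r 0.224 to 0.375, 8 of 8 best with their own number). The numbers thus appear to pair the regions, which the labels do not state, and the source of the pairing was not tested. For the 8 pairs of WT and CAG42 arrays of one number, r was -0.174 to 0.214. Of these, 2 were best with their own number, both of number 4 (0.142 in cerebellum, 0.214 in brainstem). Alternatives were fits without liver or per tissue, replicate blocks, a filter on dim probe sets, gene means, other scalings, array weights, an intensity trend with robust variance, and leaving out each brain array.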

Additional observations from a re-analysis of the deposited data

Results flagged for a closer look

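Of 42 groups of 4 mice (7 genes, 6 groups), 5 held a mouse whose gap to the others exceeded Dixon's critical value at 95%, and chance flags about 1 in 20. Glrb was involved in 3: it read 8.61 in WT cerebellum replicate 3, below 8.79 to 8.82 in the others, 9.67 in WT brainstem replicate 1, above 9.30 to 9.35, and 2.72 in WT liver replicate 1, below 3.92 to 4.12. Gabra2 read 7.29 in CAG42 brainstem replicate 2, below 7.48 to 7.50. Gabrb2 read 2.97 in CAG42 liver replicate 2, below 3.17 to 3.18. The cause was not tested.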

How the results depend on the processing

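The regional differences of the 7 genes kept direction and call in 133 of 133 values in WT and 133 of 133 in CAG42 mice, over 19 alternatives each (highest adjusted p 0.0351 and 0.0269 in limma). Apart from gene means, every alternative used the brightest probe set of a gene. The count thus does not cover the disagreement among the Gabrb2 probe sets. No genotype value of the 7 genes was called under any alternative (lowest adjusted p 0.672 in cerebellum, 0.592 in brainstem and 0.954 for the difference between the regions). With the replicate number as a block, 12 of the 15 probe sets were called between the regions in WT and 11 in CAG42 mice; with genotype and number as a fixed block and no liver arrays, 0 probe sets of the array were called for the difference of genotype effects against 1, and the pairing changed no other call of these genes. Calls over the array split into 9970 higher and 9990 lower in WT cerebellum after quantile normalization and 10395 and 9998 after centring on medians, against 8469 and 12701, while 13 and 12 of the 15 probe sets were called. In brainstem, 13 probe sets of the array were called between the genotypes without liver arrays and 25 with array weights, against 7. In cerebellum, 10 were called with each tissue fitted alone and 32 with array weights, against 20. With a mean of each gene's probe sets, 8755 genes were called between the regions in WT, 8613 in CAG42 mice, 5 between the genotypes in cerebellum, 0 in brainstem and 0 for the difference; this setting both averages probe sets and drops unnamed ones, and the cause was not tested. That difference had 0 calls after quantile normalization. Leaving out both number 4 brainstem arrays, chosen after seeing the data, gave 14 calls in brainstem, 0 for the difference and -0.0090 for Glrb between the genotypes. Small genotype values changed sign. With gene means these were Gabra3 (0.0041) and Gabrd (-0.0049) in cerebellum, Slc6a5 (-0.059) in brainstem, and for the difference Gabra3 (0.090), Gabrb2 (-0.11) and Slc6a5 (0.11). With array weights, Gabrd was -0.042 in brainstem and 0.070 for the difference. Leaving out each array in turn gave 9 to 19 calls in cerebellum, 6 to 11 in brainstem and 1 to 2 for the difference. The cerebellar count was 13 without WT replicate 1 or 2, 12 without WT replicate 3 or 4, 9 without CAG42 replicate 1 and 10 without CAG42 replicate 2. In brainstem, 11 were called when WT replicate 1 was dropped, and 2 were called for the difference without CAG42 cerebellum replicate 4. Values ranged from -0.0038 to 0.10 for Gabrd and -0.038 to 0.058 for Slc6a5 in cerebellum, and from -0.091 to 0.016 for Gabra3, -0.12 to 0.44 for Gabrd and -0.0098 to 0.15 for Slc6a5 in brainstem. For the difference they ranged from -0.20 to 0.011 for Gabra2, -0.19 to 0.011 for Gabra3, -0.023 to 0.062 for Gabrb2, -0.41 to 0.15 for Gabrd and -0.14 to 0.018 for Slc6a5. The cause was not tested.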
